A study of Mus musculus with 8 samples.

Results

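The genes of the extracellular matrix and of its remodelling were followed across the ASH2L binding sites of mouse embryo fibroblasts. They were chosen by symbol from the protein-coding genes of the GENCODE mm10 annotation and comprise the collagen chains, the laminin chains, fibronectin, the fibrillins and fibulins, Sparc, the lysyl oxidases, the matrix metalloproteinases (MMPs), their tissue inhibitors (TIMPs) and the ADAMTS proteases. The rule found 113 of 21938 protein-coding genes, 44 of them collagens. ASH2L is a core subunit of the KMT2 complexes, which methylate lysine 4 of histone H3, and was mapped by chromatin immunoprecipitation and sequencing (ChIP-seq) in immortalised mouse embryo fibroblasts (iMEF). The cells carried a lentiviral construct for human ASH2L with an N-terminal FKBP12F36V tag and HA epitopes, and exon 4 of the endogenous Ash2l gene had been deleted by a tamoxifen-activated Cre recombinase. The tag lets dTAG-13 tie the fusion protein to a ubiquitin ligase for degradation, and the cells were clones selected after the deletion. The 8 libraries formed 4 groups of 2, namely ASH2L precipitates from cells without dTAG, ASH2L precipitates from cells with dTAG for 1 h, and the inputs of both. All groups shared the fusion protein and the deletion, and cells with endogenous ASH2L were not among them.

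Fibroblasts build and turn over much of the matrix of connective tissue. Fibrillar collagens form the tension-bearing fibres, collagen IV and the laminins form the sheet of the basement membrane, and lysyl oxidases cross-link the fibres, while MMPs and ADAMTS proteases cut matrix proteins and TIMPs block many of these proteases. ASH2L is known mainly from promoters, where the KMT2 complexes deposit H3 lysine 4 trimethylation, and some KMT2 complexes also act at enhancers that lie in introns or between genes.

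The data analysed here were 1 list of 6444 sites over all samples, of which 6428 lay on the 21 assembled chromosomes. The list gave positions alone, without height and without a value per library. Depth, replicate error and the effect of dTAG could therefore not be described, and a listed site says nothing of how much a gene is transcribed. Intervals of shares below are Wilson 95% confidence intervals and cover counting error only. The 95% interval of the median width was read from the ranked widths at binomial limits. For sites per Mb, the interval used to judge alternatives came from Poisson limits of the count. Among marker genes, 6 of 12 fibroblast genes had a promoter site, namely Prrx1, Twist1, Twist2, Vim and the matrix genes Col1a1 and Col1a2, and 5 had a gene-body site. Of 6 genes each of epithelial, endothelial, blood and muscle cells 0 had a promoter site, which says little beside 14.0% of all protein-coding genes, and the endothelial genes Tek and Vwf had a gene-body site, which 5.84% of all protein-coding genes had.

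The question was whether matrix genes hold their ASH2L sites at the promoter or elsewhere in the gene. A promoter site is centred within 1 kb of an annotated transcription start site (TSS) of the gene, and a gene-body site is centred elsewhere inside the gene. Of the 113 genes, 10 had a promoter site (8.85%, interval 4.88 to 15.5%), against 14.0% of all protein-coding genes. In contrast, 17 had a gene-body site (15.0%, 9.61 to 22.8%), against 5.84% of all. This count depended on narrow sites. It was 11 without sites of the minimum width of 200 bp (9.73%, against 4.4%) and 6 with sites at or above the median width (5.31%, against 2.75%). A gene-body site without a promoter site was found in 16 matrix genes (14.2%, 8.91 to 21.8%) and in 4.07% of all genes. Among the 26 matrix genes with any site, 16 lacked a promoter site (61.5%, 42.5 to 77.6%), compared with 22.5% of all genes with a site. Only Col4a2 had sites in both places (0.885%, against 1.77% of all genes), and 87 genes had none (77.0%, against 81.9%). In all, the matrix genes held 31 different sites, 11 at promoters and 20 in gene bodies. These shares were not tested, since sites and genes are not replicates, and gene length, which bears on them, is taken up below.

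**Figure D1:**
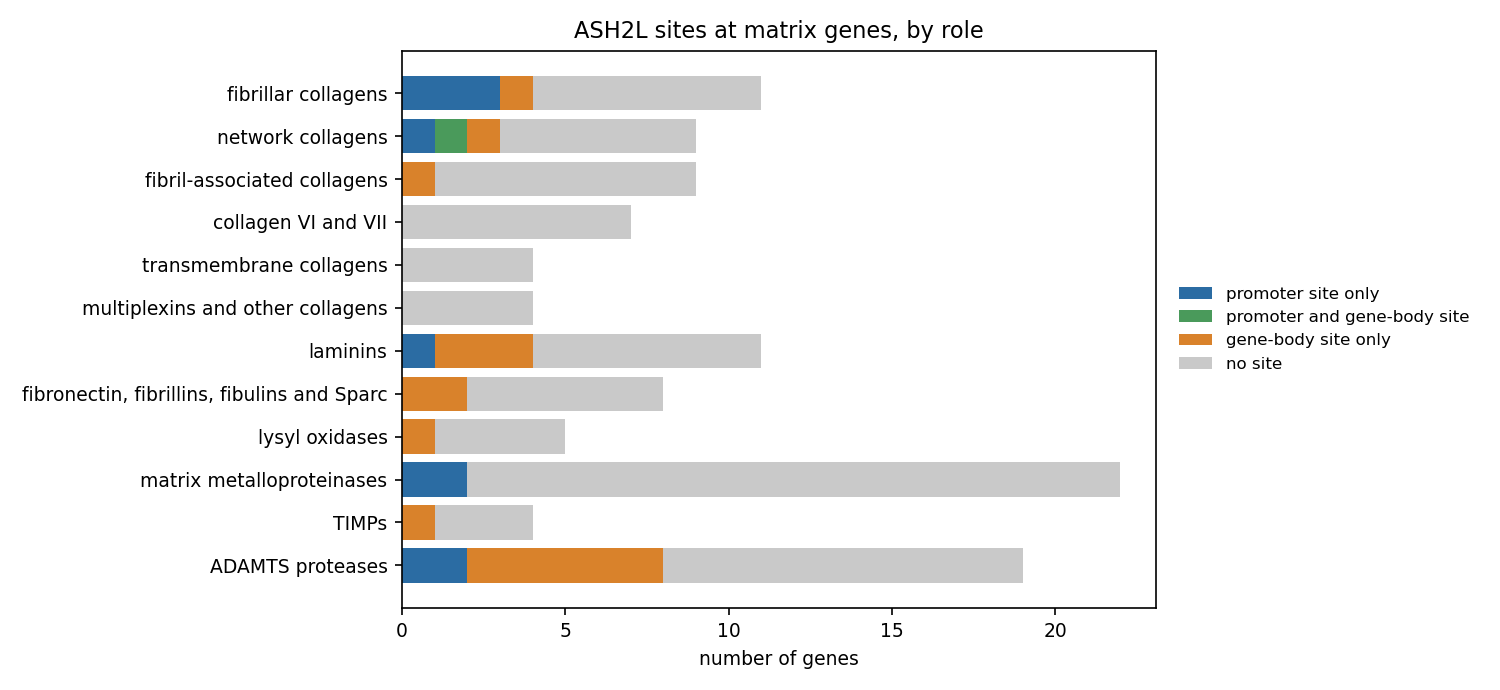
Number of matrix genes (horizontal axis) with a promoter site only, with both kinds of site, with a gene-body site only and with no site, for each role (vertical axis). The fibrillar and network collagens hold 5 of the 10 genes with a promoter site, the MMPs hold 2 promoter and 0 gene-body sites, and 6 of 19 ADAMTS genes have a gene-body site only. The roles differ in gene length, with a median of 14.4 kb in the MMPs and 114 kb in the ADAMTS genes.

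Promoter sites of the fibrillar collagens belonged to both chains of collagen I and to 1 chain of collagen V. Col1a1, the major chain of collagen I, had the widest site of any matrix gene, with 1760 bp at chr11:94936264-94938023. Its centre lay in intron 1, 919 bp downstream of the 5′ end of the gene and 543 bp upstream of an internal TSS, and it overlapped a CpG island. Col1a2, which encodes the partner chain, had a site of 582 bp at chr6:4505963-4506544, also in intron 1. This site lay 551 bp downstream of its nearest TSS but 1.44 kb from the 5′ end of the gene, and it overlapped no CpG island. A TSS of another annotated gene, Gm43921, was closer, at 166 bp, so the list does not assign the site to Col1a2 alone. Col5a2, whose product joins collagen V, a regulator of fibril thickness, had a site of 835 bp at chr1:45502213-45503047. It was centred in intron 1, 652 bp downstream of the TSS, and overlapped a CpG island. All 3 sites were therefore centred in intron 1, with the centre displaced from the 5′ end into the gene. The Col1a1 and Col5a2 sites were wide enough to overlap an annotated UTR as well, and the Col1a2 site was not.

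Among the other fibrillar collagens, Col5a3, a further collagen V chain, had a gene-body site of 206 bp in intron 1 (chr9:20812494-20812699), centred 2471 bp downstream of its TSS. No site was listed in Col2a1, Col3a1, Col5a1, Col11a1, Col11a2, Col24a1 or Col27a1. The nearest site lay 153 kb outside Col3a1, the partner of collagen I in soft tissues, and 371 kb outside Col5a1.

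The network collagens included the only promoter site shared by a pair of matrix genes. Col4a1 and Col4a2, the main chains of collagen IV, are transcribed in opposite directions from a common promoter region. A site of 489 bp at chr8:11313528-11314016 was centred 946 bp upstream of the Col4a1 TSS and 967 bp downstream of the Col4a2 TSS, in intron 3 of the longest Col4a2 transcript, and overlapped a CpG island. Col4a2 also held a gene-body site of 200 bp at chr8:11323114-11323313, 10.4 kb from its 5′ end. The other collagen IV pairs, Col4a3 with Col4a4 and Col4a5 with Col4a6, had no site, although the nearest lay 2.91 kb outside Col4a3. Col8a1, a chain of the short-chain network collagen VIII, had a site of 200 bp in intron 2 (chr16:57671719-57671918), 82.9 kb from the 5′ end. Col8a2 and Col10a1 had none.

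The promoter-site sequences of Col1a2 and of the collagen IV pair differed in CpG content. The central 300 bp of each are printed from the plus strand of GRCm38.p6, 5′ to 3′, with CpG dinucleotides in capitals.
Col1a2 chr6:4506104-4506403: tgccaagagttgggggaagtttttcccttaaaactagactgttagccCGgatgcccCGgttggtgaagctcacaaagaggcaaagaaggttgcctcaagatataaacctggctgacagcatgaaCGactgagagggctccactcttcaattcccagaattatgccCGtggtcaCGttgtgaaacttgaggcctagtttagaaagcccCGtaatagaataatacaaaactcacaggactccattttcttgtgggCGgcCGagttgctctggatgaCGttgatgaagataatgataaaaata
Col4a1 and Col4a2 chr8:11313623-11313922: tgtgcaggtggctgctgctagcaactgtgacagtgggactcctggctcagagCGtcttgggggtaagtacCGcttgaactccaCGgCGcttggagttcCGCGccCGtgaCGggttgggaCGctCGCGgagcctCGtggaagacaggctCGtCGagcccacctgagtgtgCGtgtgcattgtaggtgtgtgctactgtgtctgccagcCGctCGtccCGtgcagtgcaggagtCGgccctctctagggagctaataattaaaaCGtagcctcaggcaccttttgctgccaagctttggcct
The stretch at Col1a2 holds 9 CpG dinucleotides and the stretch at the collagen IV genes holds 20. Over the whole sites there were 2.41 CpG dinucleotides per 100 bp at Col1a2, 3.52 at Col1a1 and 5.11 at the collagen IV pair. The GC content was 46.2% at Col1a2, 46.5% at Col5a2, 54.5% at Col1a1 and 58.1% at the collagen IV pair.

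The remaining collagens had a single site among them. Col22a1, a fibril-associated collagen of tissue junctions, carried a site of 200 bp in intron 1 (chr15:72009609-72009808), 24.5 kb from its 5′ end. The other 8 fibril-associated genes, among them Col12a1 and Col14a1, had none. No site fell in the 7 genes of collagens VI and VII, the 4 transmembrane collagens or the 4 multiplexins and other collagens. Thus 5 of 44 collagen genes had a promoter site, 4 had a gene-body site and 36 had neither. Of all protein-coding genes, 14.0% had a promoter site, 5.84% had a gene-body site and 81.9% had neither.

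Among the 11 laminin genes, with a median length of 114 kb, 1 had a promoter site and 3 had a gene-body site. At 100 kb or more, 19.1% of all genes had a promoter site and 26.3% a gene-body site. Lamc1, the gamma chain shared by most laminins, had a site of 251 bp at chr1:153331682-153331932 in intron 1, centred 979 bp downstream of the TSS, which is the promoter site nearest to the 1 kb limit. Lamb1, the beta chain that pairs with it in the early basement membrane, had a site of 341 bp in intron 3 (chr12:31271270-31271610), 6.21 kb from the 5′ end. Lama2, the alpha chain typical of muscle, had a site of 278 bp at chr10:27063719-27063996 in intron 41, 556 kb into the gene. Among the 7 laminin genes without a site were Lama1, Lama4, Lama5 and Lamb2.

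The structural glycoproteins and the lysyl oxidases had gene-body sites only. Sparc, a collagen-binding matricellular protein abundant in fibroblasts, had a site of 368 bp at chr11:55418348-55418715 in intron 1, 1367 bp downstream of its nearest TSS and 4.65 kb from the 5′ end. It is the gene-body site closest to the promoter limit, and it overlapped no CpG island. Fbn1, the main component of microfibrils, had a site of 224 bp at chr2:125302359-125302582 in intron 64 of a transcript with 65 exons, at 99.1% of the gene's length. Lox, which starts the cross-linking of collagen and elastin, had a site of 200 bp in intron 4 of its longest transcript, 3.38 kb from the 5′ end. No site was listed in Fn1, the gene of fibronectin, where the nearest lay 213 kb outside the gene, nor in Fbn2, Fbln1, Fbln2, Fbln5 or Fbln7. Loxl1, Loxl2, Loxl3 and Loxl4 also had none, although a site lay 2.09 kb outside Loxl3.

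A promoter site and a gene-body site of this group of genes are set side by side, with CpG dinucleotides in capitals as above. The Lamc1 site is printed whole and the Sparc site over its central 300 bp.
Lamc1 chr1:153331682-153331932: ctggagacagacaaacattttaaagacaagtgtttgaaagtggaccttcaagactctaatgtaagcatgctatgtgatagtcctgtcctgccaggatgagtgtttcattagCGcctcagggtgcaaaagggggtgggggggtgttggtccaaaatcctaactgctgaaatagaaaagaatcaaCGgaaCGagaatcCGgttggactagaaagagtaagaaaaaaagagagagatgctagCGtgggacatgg
Sparc chr11:55418382-55418681: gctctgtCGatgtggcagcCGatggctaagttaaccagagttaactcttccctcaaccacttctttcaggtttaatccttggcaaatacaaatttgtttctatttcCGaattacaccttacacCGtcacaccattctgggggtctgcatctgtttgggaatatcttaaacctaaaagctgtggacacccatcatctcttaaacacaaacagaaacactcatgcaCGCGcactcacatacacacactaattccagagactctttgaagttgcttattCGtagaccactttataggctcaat
The promoter-site stretch at Lamc1 holds 5 CpG dinucleotides and the intronic stretch at Sparc holds 7. The whole sites had GC contents of 45.0% and 45.9%.

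The 22 MMP genes had 2 promoter sites and 0 gene-body sites. Their median length was 14.4 kb, and of all genes from 10 to 30 kb 15.0% had a promoter site and 2.83% a gene-body site. Mmp16, which encodes a membrane-anchored protease, had a site of 378 bp at chr4:17853697-17854074 in intron 1. It was centred 292 bp downstream of its nearest TSS and overlapped a CpG island. Mmp11, stromelysin-3 of connective tissue cells, had a site of 255 bp at chr10:75932175-75932429, 173 bp downstream of an internal TSS and 4.19 kb from the 5′ end of the gene. The Mmp11 site also lay within 1 kb of a TSS of Chchd10, a gene of a mitochondrial protein, so the list does not assign it to either gene. No site fell in Mmp2, Mmp9, Mmp13 or Mmp14, which encode gelatinases, a collagenase and a membrane-anchored collagenase. The nearest site lay 469 kb outside Mmp2 and 131 kb outside Mmp14. The clustered Mmp genes of chromosome 9 (Mmp1b, Mmp3, Mmp7, Mmp8, Mmp10, Mmp12, Mmp13, Mmp20 and Mmp27) had none. Of the 4 TIMP genes, Timp3, whose product binds to the matrix, had a site of 200 bp in intron 1 (chr10:86310537-86310736), 10.3 kb from the 5′ end. Timp3 lies inside Syn3, a synapsin gene, so this site is also inside Syn3. Timp1, Timp2 and Timp4 had none.

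The ADAMTS genes held the most sites, with 4 promoter sites in 2 of 19 genes and 9 gene-body sites in 6 others. Their median length was 114 kb, and of all genes of 100 kb or more 19.1% had a promoter site and 26.3% a gene-body site. Adamts6 had 3 promoter sites on chromosome 13. They measured 216 bp (chr13:104287073-104287288, 655 bp upstream of the nearest TSS), 301 bp (chr13:104287787-104288087, 38 bp upstream) and 229 bp (chr13:104288589-104288817, 728 bp downstream). A further site lay 1834 bp upstream, outside both the window and the gene. The middle site was centred in the UTR of exon 1, between the other 2. Adamts17, a protease tied to fibrillin microfibrils, had a site of 237 bp at chr7:66908949-66909185 in intron 5, 401 bp upstream of an internal TSS but 69.3 kb from the 5′ end. It overlapped no CpG island and was no promoter site when the TSSs of protein-coding transcripts alone were counted.

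The Mmp11 and Adamts17 sites show the span of CpG content among the promoter sites of matrix genes. Both are printed whole, from the plus strand, with CpG dinucleotides in capitals.
Mmp11 chr10:75932175-75932429: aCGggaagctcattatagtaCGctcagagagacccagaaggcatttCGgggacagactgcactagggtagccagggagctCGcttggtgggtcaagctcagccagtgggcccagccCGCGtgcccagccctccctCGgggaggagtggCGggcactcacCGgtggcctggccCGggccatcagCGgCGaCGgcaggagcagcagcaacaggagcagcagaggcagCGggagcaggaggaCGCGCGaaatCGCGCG
Adamts17 chr7:66908949-66909185: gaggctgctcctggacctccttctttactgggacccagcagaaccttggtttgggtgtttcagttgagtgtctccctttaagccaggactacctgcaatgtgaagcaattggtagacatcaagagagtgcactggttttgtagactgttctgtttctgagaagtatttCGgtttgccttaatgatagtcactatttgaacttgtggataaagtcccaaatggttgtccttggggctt
The Mmp11 sequence holds 20 CpG dinucleotides at 67.5% GC, the highest GC content among these promoter sites, and the Adamts17 sequence holds 1 at 45.6% GC.

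Adamts20, a protease of melanoblast migration, had 4 gene-body sites, more than any other matrix gene. They lay at chr15:94384001-94384200, chr15:94428034-94428233, chr15:94443464-94443873 and chr15:94444315-94444514, and measured 200, 200, 410 and 200 bp. The first was in intron 3 of the longest protein-coding transcript. The other three lay upstream of that transcript, inside the gene as annotated through a longer transcript. Single gene-body sites were found in Adamts5, an aggrecan-cleaving protease (203 bp, intron 1, 3.02 kb from the 5′ end), in Adamts14, a procollagen N-proteinase (200 bp, intron 2, 10.2 kb), and in Adamts12 (215 bp, intron 2, 53.8 kb). Likewise, single sites lay in Adamts16 (227 bp, intron 6, 47.5 kb) and Adamts18 (308 bp, intron 3, 55.9 kb). The 11 other ADAMTS genes, among them the versican- and aggrecan-cleaving Adamts1 and Adamts4, had none.

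Promoter sites of matrix genes were centred farther from the TSS than promoter sites in general. Of the 12 pairs of a matrix gene and a promoter site, 8 were centred more than 500 bp from the nearest TSS of the gene (66.7%), against 15.9% of the 3640 pairs of all protein-coding genes. The median distance was 602 bp in the matrix genes and 152 bp in all. These distances are of site centres, and a wide site can reach closer to the TSS than its centre. Beyond 500 bp the median width was 489 bp in matrix-gene sites and 294 bp in all, and within 500 bp it was 278 and 307 bp. With a window of 500 bp, 4 matrix genes had a promoter site (3.54%), namely Adamts6, Adamts17, Mmp11 and Mmp16, compared with 12.5% of all genes, and all 5 collagens and Lamc1 fell outside. Just inside the 1 kb limit were Lamc1 at 979 bp, Col4a2 at 967 bp and Col4a1 at 946 bp. Just outside it were Sparc at 1367 bp, the upstream Adamts6 site at 1834 bp and Col5a3 at 2471 bp. With a window of 3 kb, Sparc and Col5a3 were among the genes that moved to the promoter class, which then held 13 matrix genes (11.5%, against 15.4% of all). The side of the TSS did not stand apart, with 7 of 12 pairs downstream (58.3%) and 61.4% in all genes.

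**Figure D2:**
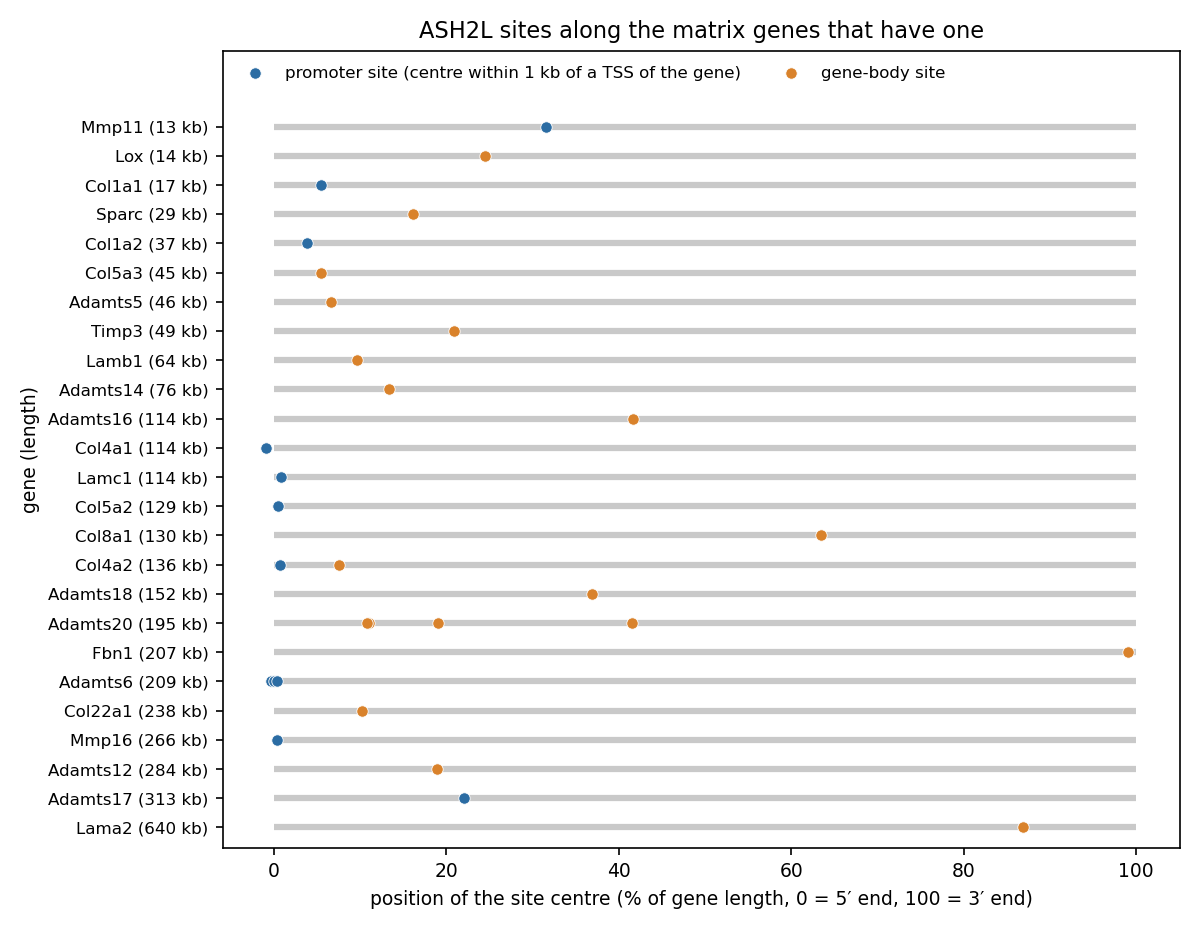
Position of each site centre as a percentage of gene length (horizontal axis, 0 at the 5′ end and 100 at the 3′ end) in 25 of the 26 matrix genes with a site (vertical axis, gene length in brackets). Most gene-body sites lie toward the 5′ end, and Fbn1, Lama2 and Col8a1 have theirs beyond 60% of the gene.

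Gene-body sites of matrix genes lay toward the 5′ end. All 20 were intronic, as were 87.7% of gene-body sites of all genes, and with 20 sites the 0 outside introns allow a share of up to 15%. The median position was 19.0% of the gene's length, against 40.9% in all genes. Within the first 25% of the gene lay 13 of 20 (65%), against 34.6% in all. More than 3 kb from every annotated TSS lay 16 of 20 (80%, 58.4 to 91.9%), an interval that includes the 69.2% of all gene-body sites over 1 kb from every TSS. The 4 nearer ones included those of Sparc, Lox and Col5a3. Each of the 17 genes with a gene-body site kept one that was more than 1 kb from the TSSs of all other genes as well (15.0%), while 5.40% of all protein-coding genes had such a site.

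Gene length separated matrix genes from other genes and moved with the share that had a gene-body site. The median length was 54.7 kb in the matrix genes and 17.4 kb in all protein-coding genes. Of matrix genes from 10 to 30 kb, 2 of 33 had a gene-body site (6.06%, interval 1.68 to 19.6%), against 2.83% of all genes of this length. From 30 to 100 kb the count was 6 of 27 (22.2%, 10.6 to 40.8%), against 7.04%. At 100 kb or more it was 9 of 45 (20%, 10.9 to 33.8%), against 26.3%. The interval lay above the rate of all genes from 30 to 100 kb and included it from 10 to 30 kb and at 100 kb or more. Genes under 100 kb with a gene-body site included Lox, Sparc, Col5a3, Adamts5, Timp3, Lamb1 and Adamts14. Promoter sites were found in 2 of 33 (6.06%, 1.68 to 19.6%), 1 of 27 (3.70%, 0.657 to 18.3%) and 7 of 45 (15.6%, 7.75 to 28.8%) matrix genes of these lengths, against 15.0%, 20.3% and 19.1% of all genes. Only the interval from 30 to 100 kb excluded the rate of all genes. None of the 8 genes under 10 kb had a site.

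At the rates that other protein-coding genes of the same 4 length classes show, 113 genes would hold 14.8 genes with a gene-body site (13.1%) and 19.7 with a promoter site (17.4%). The matrix genes had 17 and 10. For genes with a gene-body site and no promoter site this figure was 10.7, against 16 observed, and the share without a promoter site among 26 genes with a site was 35.8%, against 61.5% observed (42.5 to 77.6%). That excess lay in the shorter genes, with 2 of 4 from 10 to 30 kb (interval 15.0 to 85.0%, 10.9% of all genes) and 6 of 7 from 30 to 100 kb (48.7 to 97.4%, against 19.3%). At 100 kb or more 8 of 15 had no promoter site (53.3%, 30.1 to 75.2%), against 50.5% of all genes. Some of these shorter genes had their site not far past the 1 kb limit, with Sparc at 1367 bp, Col5a3 at 2471 bp, Adamts5 at 3020 bp and Lox at 3188 bp from their own nearest TSS. With a window of 3 kb the share without a promoter site among genes with a site was 50% in matrix genes and 17.4% in all. Per length of gene body, matrix genes held 1.90 sites per Mb and all protein-coding genes held 1.84. This pooled value joins 0.783 per Mb in the collagens and 2.95 in the other matrix genes. By length it joins 0 under 10 kb (5.14 in all genes), 3.91 from 10 to 30 kb (2.41), 4.50 from 30 to 100 kb (1.79) and 1.39 at 100 kb or more (1.64). The interval of the gene-body share (9.61 to 22.8%) thus included the rate of other genes of like length, whereas the interval of the promoter share (4.88 to 15.5%) lay below it.

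**Figure D3:**
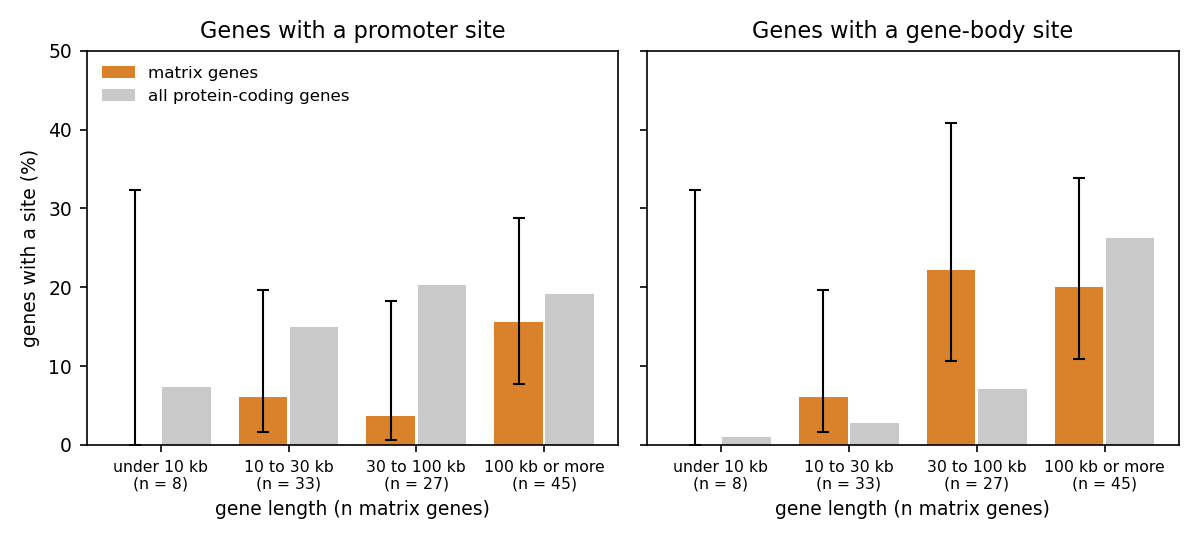
Percentage of genes with a promoter site (left) and with a gene-body site (right) by gene length, for matrix genes (orange, with Wilson 95% intervals) and all protein-coding genes (grey). Only from 30 to 100 kb do the intervals exclude the rate of all genes, with the matrix genes lower for promoter sites and higher for gene-body sites.

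Promoter sites were also counted among genes with a CpG island at the TSS. An island, computed from the sequence, lay within 1 kb of a TSS in 91 of 113 matrix genes (80.5%), compared with 73.4% of all genes. Of these 91 genes, 10 had a promoter site (11.0%, 6.08 to 19.1%), against 19.0% of all protein-coding genes with an island, which the interval just includes. Of the 22 matrix genes without an island, Col3a1 and the clustered Mmp genes among them, 0 had a promoter site, which allows a share of up to 13.6%, and of all genes without an island 0.325% had 1, so that the count says little about matrix genes. Other genes of the same length and island class would give 19.0 genes with a promoter site (16.8%).

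Chromosomes 10 and 15 carried many of the gene-body sites. They held 17 of the matrix genes and 9 of the 20 gene-body sites, in Lama2, Adamts14, Timp3, Adamts12, Col22a1 and Adamts20. There 6 of 17 matrix genes had a gene-body site (35.3%, 17.3 to 58.7%), against 9.19% of all genes on these chromosomes. On the other chromosomes 11 of 96 had 1 (11.5%, 6.52 to 19.4%), against 5.54%. Per Mb of gene body, matrix genes held 4.07 sites on chromosomes 10 and 15 and 1.32 elsewhere, compared with 3.06 and 1.71 in all genes. Chromosome 10 alone gave 2.51 against 2.61 in all genes and chromosome 15 gave 5.90 against 3.69, with 4 of its 6 sites in Adamts20. Of the 9 sites on chromosomes 10 and 15, 6 had the minimum width of 200 bp, 3 of them in Adamts20, and 3 of the 11 sites elsewhere did. Among all gene-body sites more than 1 kb from every TSS the share at this width was 28.6% on chromosomes 10 and 15 and 28.2% elsewhere. Whether these chromosomes differ in copy number in the cells was not tested. Without Adamts20 the density in matrix genes was 1.55 per Mb.

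The width and base composition of the gene-body sites were set beside those of all genes. Their median width was 204.5 bp (95% interval 200 to 278 bp), with 9 of 20 at the minimum of 200 bp (45%), compared with a median of 240 bp and 28.3% in all gene-body sites more than 1 kb from every TSS, so that the interval includes the median of all. None overlapped a computed CpG island, which allows a share of up to 15%. All 20 were more than 1 kb from every TSS, and of all gene-body sites at that distance 13.5% overlapped an island, so that a lower share was not detectable with 20 sites. The GC content had a median of 46.0%, against 45.9%. Promoter sites of matrix genes were as wide as others, with a median of 301 bp against 305 bp, but poorer in CpG. They had a median GC content of 48.1% and 2.41 CpG dinucleotides per 100 bp, against 66.5% and 9.50 in all promoter sites, and 8 of 11 overlapped an island (72.7%, 43.4 to 90.3%), against 92.0%. Among promoter sites centred more than 500 bp from the TSS, the median GC content was 48.6% in 7 matrix-gene sites and 54.9% in all 559. Within 500 bp it was 46.9% in 4 sites and 67.8% in all 2707.

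**Figure D4:**
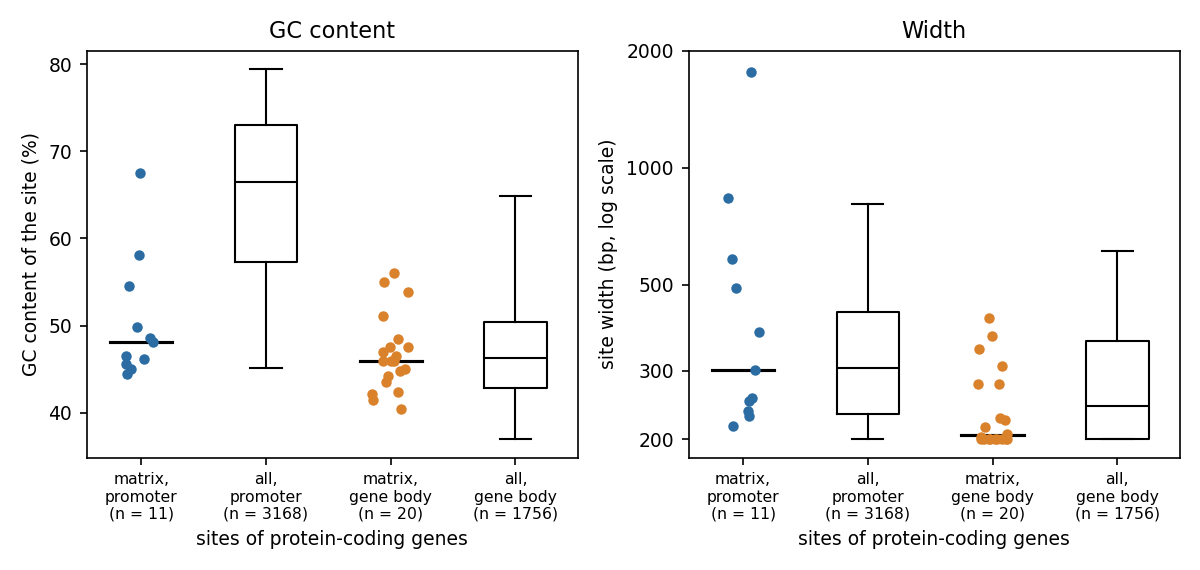
GC content in percent (left) and width in bp on a log scale (right) of the 11 promoter and 20 gene-body sites of matrix genes (points, with a line at the median) and of all promoter and gene-body sites of protein-coding genes (boxes from the lower to the upper quartile with the median, whiskers from the 5th to the 95th percentile). The matrix-gene promoter sites are mostly below the box of all promoter sites in GC content, and the gene-body sites gather at the minimum width.

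The motif of AP-1, the Fos and Jun factors that occupy many fibroblast enhancers, was searched as TGACTCA and TGAGTCA, which are the same site on opposite strands, in the 200 bp at each site's centre. It was found in 2 of 20 gene-body sites of matrix genes (10%, 2.79 to 30.1%), in 9.05% of all gene-body sites and in 6.13% of all sites. None of the 11 promoter sites held it, which allows a share of up to 27.3%, and 2.05% of all promoter sites did. The site with a match in Col8a1 is printed whole from the plus strand, with the motif in capitals.
Col8a1 chr16:57671719-57671918: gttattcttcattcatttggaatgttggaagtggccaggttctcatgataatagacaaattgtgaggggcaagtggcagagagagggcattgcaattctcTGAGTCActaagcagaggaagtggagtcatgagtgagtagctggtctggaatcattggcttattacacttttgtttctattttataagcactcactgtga
In Col8a1 the match was TGAGTCA at chr16:57671819-57671825. The share with the motif in matrix genes was close to that of all gene-body sites.

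The 87 matrix genes without a site had their nearest site at a median of 97.3 kb outside the gene, with quartiles of 33.8 and 249 kb. For the 17967 protein-coding genes without a site the median was 126 kb. A site lay within 10 kb of 9 of the 87 (10.3%, against 6.53%) and within 50 kb of 31 (35.6%, against 27.0%). The nearest were those of Loxl3 at 2.09 kb, Col4a3 at 2.91 kb, Adamts4 at 3.15 kb and Lama5 at 4.55 kb, and the farthest was that of Col11a1 at 1532 kb. Of the collagen VI chains of connective tissue, Col6a1 had its nearest site at 39.6 kb, Col6a2 at 45.6 kb and Col6a3 at 155 kb. Which gene such a site acts on is not given by the list.

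A list of 78 other matrix genes outside the rule, among them proteoglycans, thrombospondins, microfibril proteins and collagen-modifying enzymes, was counted in the same way. A promoter site was found in 11 (14.1%, 8.06 to 23.5%), against 14.0% of all protein-coding genes, and a gene-body site in 11 (14.1%, 8.06 to 23.5%), against 5.84%. Gene length was not taken into account here, and 6 of these 11 genes were longer than 100 kb. Promoter sites were found, among others, in Thbs1, Mfap5, Ltbp4, Spp1, P4ha1, Pcolce2, Tll1, Adamtsl3, Adam10 and Plat. Of the 17 genes of this list with any site, 6 had no promoter site (35.3%, 17.3 to 58.7%), compared with 16 of 26 among the chosen matrix genes. Their intervals overlapped, and the difference was not tested. Thbs1, Spp1, P4ha1, Tll1 and Adamtsl3 had sites in both places, as Col4a2 did.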

How the data were processed

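ASH2L was profiled by ChIP-seq in 4 ASH2L and 4 input libraries of iMEF cells. The authors aligned reads with BWA to mm10, called peaks with MACS2 and tested binding with DESeq2, per the submitters' processing notes and their methods, and versions are not given in the sources used here. The deposited file holds positions (chromosome, start, end) compiled over all samples, with no count or score, so the depth per library is unknown. The planned comparison of signal between groups was not run because the list used here has no values per sample. The study also names a list of sites changed after dTAG, not analysed here.

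Starts were read as counted from 0 and printed from 1. Genes and TSSs came from GENCODE release M21 (the authors used M25) and sequence from GRCm38.p6, both of the same build. Sites were assigned by their centre. CpG islands were built from 200-bp windows with a GC content above 50% and CpG at more than 0.6 of the expected number. A site that shared any base with an island counted as overlapping it. Exon and intron numbers refer to the longest protein-coding transcript. Matrix genes with a site are named, except for an item that is not reported here, with coordinates for the 10 genes with the most sites (ties by summed width), for promoter sites of 19 listed fibroblast genes and, chosen after the values were seen, for other sites described. The matrix genes and lists were chosen with earlier results of these data known. No test was made over the genes, and where nothing was found, 3 counts served as the upper limit. The 16 sites outside the assembled chromosomes were left out. Alternatives changed the window, TSSs, overlap, widths, merging, islands, motif window and genes included. Calculations used matplotlib 3.10.9, SciPy 1.17.1, pandas 2.3.3, NumPy 2.4.6 and Python 3.11.15, and the assignment was tested on simulated sites.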

Additional observations from a re-analysis of the deposited data

Results flagged for a closer look

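The list held 16 sites outside the 21 assembled chromosomes, 3 on the mitochondrial chromosome and 13 on unplaced or patch sequences. They were noted because no comparison uses them. The list gives no input signal to set beside them.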

How the results depend on the processing

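Over 16 settings, 102 of 120 alternative values stayed near the reported ones (counts within 1.5 times, other values inside the 95% interval of the reported value) and 18 moved. The island share of gene-body sites, reported as 0%, reached 15.4% with a window of 500 bp, and the AP-1 share, reported as 10%, ranged from 5.88 to 18.2%. With a window of 500 bp, 4 genes had a promoter site (3.54%, against 12.5% of all genes), with 4 promoter sites. With 3 kb, 94.1% of gene-body sites lay over 3 kb from every TSS, since the window itself takes out sites within 3 kb of a TSS of the same gene. The Lox site stayed, at 2175 bp from a TSS of another gene. Leaving out sites of 200 bp gave 11 genes with a gene-body site (9.73%, against 4.4% of all genes), 11 gene-body sites and 1.04 per Mb. Sites at or above the median width of 268 bp gave 6 genes with a gene-body site, 6 of them without a promoter site, 6 gene-body sites, 6 promoter sites, 0.57 gene-body sites per Mb and a median width of 324.5 bp, against 5.31% and 2.75% of matrix and all genes with a gene-body site. Without matrix genes on chromosomes 10 and 15, 11 genes had a gene-body site (11.5%, against 5.54% of all genes on the other chromosomes), 10 without a promoter site, with 11 sites. Without collagens, 5 of 69 genes had a promoter site (14.0% of all protein-coding genes), with 7 promoter sites, and gene-body sites numbered 2.95 per Mb. Fewer sites or genes entered in these last 4 settings. In the 8 settings of assignment or width that were also run over all genes, the share with no promoter site among genes with a site was 46.2 to 84% in matrix genes and 17.4 to 32.1% in all genes. No paired analysis was possible because the list has no columns per sample. Depth limits are unknown without counts.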
